A study of Danio rerio with 6 samples.

Results

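10 names of fast skeletal muscle genes were followed through sorted cells of the embryonic zebrafish heart: *mylpfa*, *mylz3*, *myhz1.1*, *myhz2*, *actc1b*, *acta1b*, *tnnt3a*, *tnnt3b*, *ckma* and *pvalb1*. They were taken by name, as genes of fast muscle. Of the 31465 genes in the deposited tables, 13 were taken for these 10 names. The tables gave 5 names by symbol. Both troponin T names stood as the 2 genes listed under the symbol TNNT3, so that 7 genes were settled. *mylpfa*, *mylz3* and *acta1b* were each 1 of a pair of genes listed under MYL11, MYL1 and ACTA1, and the tables do not say which, so both genes of each pair are given by their Ensembl identifier. The other gene of each pair is not on the list of names. Counts, medians and sums over the members below include such genes, unless they are given for the settled genes.

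The libraries came from hearts of the enhancer trap line sqet33mi59BEt at 72 hpf, in which GFP marks a ring of cells where blood enters the heart. Dissociated hearts of pooled embryos were sorted by FACS into GFP+ cells, the sinoatrial ring (SAR), and GFP- cells, the rest of the heart (ROH), with 3 libraries in each fraction. Both fractions come from the same transgenic line and stage and were separated by GFP alone. Hearts were freed by passing whole embryos through a syringe and by filtering through meshes, and were then picked by hand, so body tissue was present during the preparation. The study's methods describe 3 pools of embryos, each a biological replicate, and sorting into both fractions, while the labels do not say outright that a replicate number marks a pool. Values from a fit with the replicate number as a block are therefore given where they turn a direction or a call.

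Fast skeletal muscle contracts through thick filaments of fast myosin heavy chains with their essential and regulatory light chains, and thin filaments of skeletal actin. The troponin complex, with troponin T as its tropomyosin-binding subunit, makes the thin filament respond to calcium. Creatine kinase buffers ATP, and parvalbumin binds calcium and speeds relaxation. These genes are typical of trunk and head muscle of the fish embryo, while cardiomyocytes use cardiac or atrial and ventricular paralogs for many of the same tasks. The actin genes are the exception, since the proteins of cardiac and skeletal actin genes are nearly the same in sequence.

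Levels are given in TPM, a relative transcript abundance scaled to gene length and library total. Fold changes are log2 values of SAR minus ROH from edgeR's quasi-likelihood test on the estimated counts. A gene was called when its Benjamini-Hochberg adjusted p over the 21969 tested genes was below 0.05 and its log2 fold change was at least 1.5 in size. The libraries held between 999437 estimated counts in ROH replicate 1 and 77243214 in SAR replicate 3. SAR replicate 1 held 7495108 and was the smallest SAR library, and SAR replicate 2 held 35013935. The summed TPM of 7 red blood cell genes was 13.4 to 21.6 in SAR and 15364 to 28912 in ROH. That of 8 epidermal genes was 4009 to 5866 in SAR and 550.5 to 756 in ROH. Cardiac muscle genes were present in both fractions, with summed TPM of 1119 to 4392 in SAR and 778 to 1411 in ROH over 13 genes.

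SAR replicate 1 stood apart for these muscle genes, though not for them alone. Of the 13 genes, 11 passed the filter on low counts, and 10 of these 11 (90.9%) had their highest TPM of the 6 libraries in SAR replicate 1. Over all tested genes this held for 2940 of 21969 (13.4%). Among the lists followed below, it held for 5 of 7 slow skeletal genes, 6 of 8 neuronal genes and 12 of 29 other fast genes. It held for 5 of 13 cardiac, 2 of 8 epidermal, 2 of 8 end plate, 1 of 7 myogenic regulator, 0 of 3 smooth muscle and 0 of 7 red blood cell genes. In 9 of the 11 (81.8%) the level of SAR replicate 1 was at least 2 times the mean of SAR replicates 2 and 3, against 5.89% of all tested genes. Fold changes of the members are therefore given with and without that library.

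No member was called in either direction, 0 of 11, where 6.54% of all tested genes were called. At an unadjusted p below 0.05 edgeR counted 1 of the 11 (9.09%), against 23.6% of all tested genes, and DESeq2 called 0, where it called 8.35% of all the genes it tested. Without SAR replicate 1 edgeR again called 0 members, where 5.82% of all tested genes were called. The median log2 fold change of the 11 was 0.76, with a range of -0.04 to 1.45, against a median of 0.03 over all tested genes. Without SAR replicate 1 the median of the same 11 genes was -0.64 and that of all tested genes was 0.02. That library was singled out because these genes were high in it, so a lower median without it follows from the choice. With the replicate block the members' median was 0.15. With limma on log2(TPM + 1) it was 0.11 over all 13 genes, since limma also fitted the genes that did not pass the filter. The median standard error was 0.82 for the 11 genes and 0.37 over all tested genes. In bulk samples, a change in the number of muscle cells and a change in the RNA of each cell cannot be told apart.

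**Figure D1:**
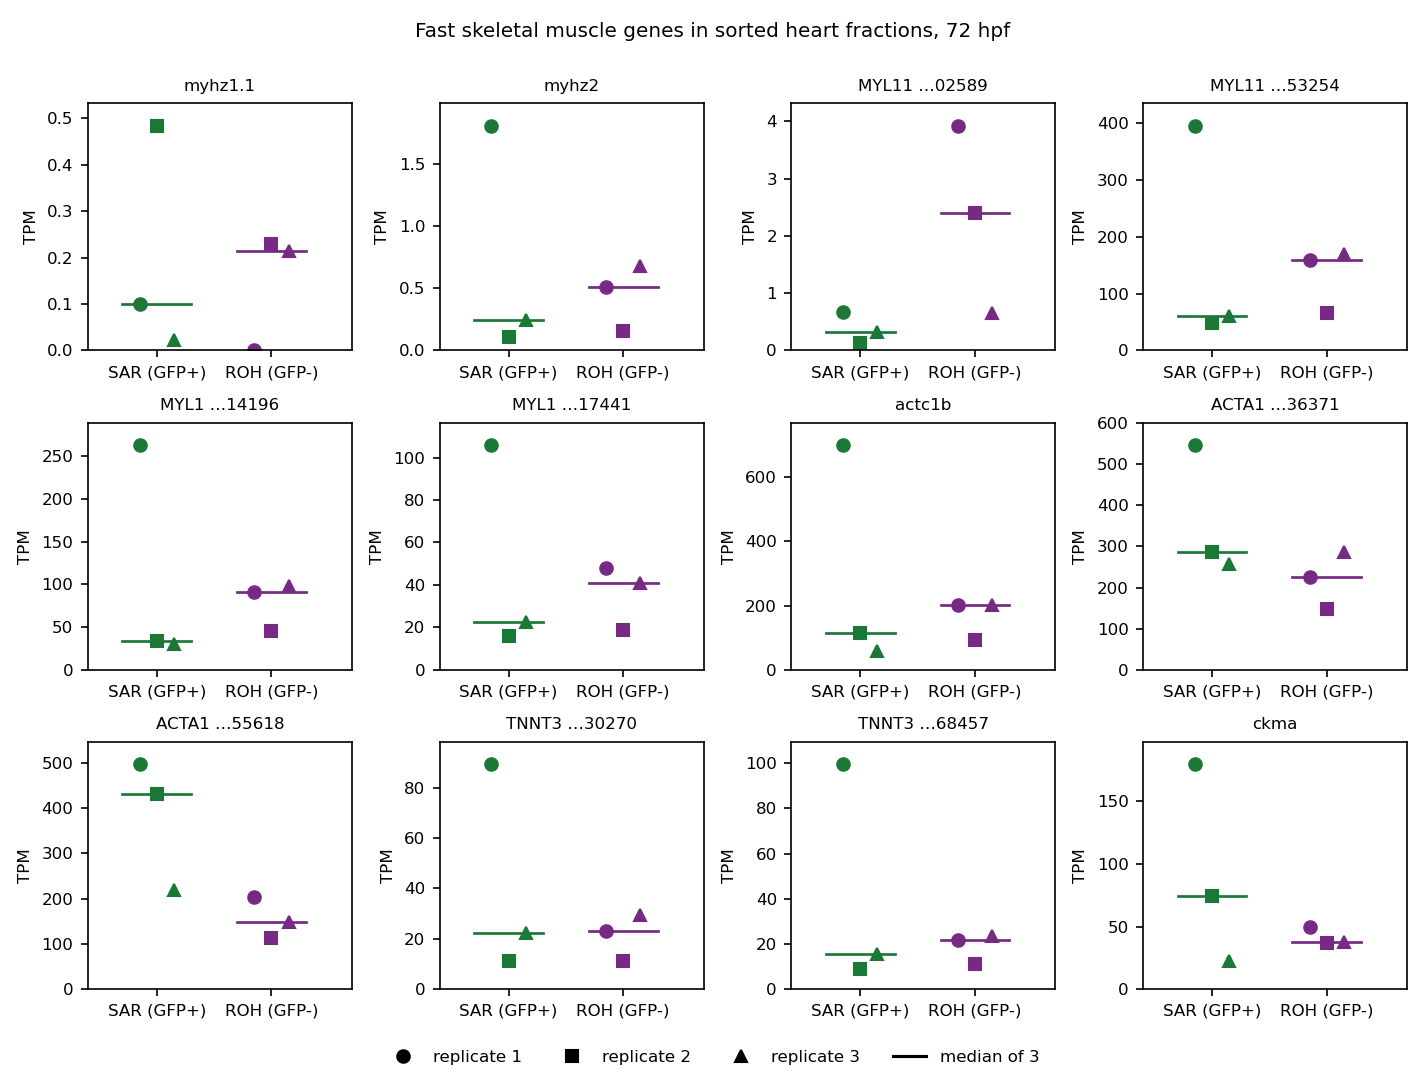
TPM of 12 of the 13 genes in each library, with SAR (GFP+) and ROH (GFP-) side by side, a marker shape for each replicate, a line at the median of 3 libraries and each vertical axis starting at 0. SAR replicate 1 is the highest library for the tested light chains, the actins, TNNT3 and *ckma*, and both myosin heavy chain genes stay under 2 TPM.

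Myosin heavy chains are the motors of the thick filament, and both heavy chain genes among the names were low in every library. Levels of other fast heavy chain genes are not given here. *myhz1.1* (ENSDARG00000067990) was at 0.101, 0.485 and 0.0231 TPM in SAR replicates 1, 2 and 3 and at 0, 0.229 and 0.214 TPM in ROH replicates 1, 2 and 3. The value of 0 in ROH replicate 1 allows up to 0.291 TPM, the worth of 3 counts in that library, for counting error only. The fractions overlapped, and the highest level was in SAR replicate 2. In edgeR the log2 fold change was -0.04 (SE 1.02, Benjamini-Hochberg adjusted p = 0.990), and 0.16 without SAR replicate 1 (adjusted p = 0.966).

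*myhz2* (ENSDARG00000012944) was at 1.81, 0.110 and 0.249 TPM in SAR and at 0.512, 0.160 and 0.679 TPM in ROH, in the order of replicates 1 to 3. SAR replicate 1 was the highest and SAR replicate 2 the lowest, so the ROH libraries lay inside the range of the SAR libraries. The log2 fold change was 0.68 (SE 1.154, edgeR, adjusted p = 0.806), and without SAR replicate 1 it was -1.40 (adjusted p = 0.399). With the replicate block it was -0.43. In the RefSeq annotation of GRCz12tu, *myhz2*, *myhc4*, *myha*, *myhz1.3*, *myhz1.2* and *myhz1.1* follow each other as 6 neighbouring genes. The estimated counts of *myhz2* were whole numbers in 0 of 6 libraries, and those of *myhz1.1* only where they were 0, so reads were divided between genes and the level of each heavy chain is uncertain.

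The light chains, which bind the neck of the myosin heavy chain, were abundant. MYL11 is the regulatory light chain of fast muscle, the symbol that stands for *mylpfa*. ENSDARG00000053254, 1 of the 2 genes listed as MYL11, was at 396, 48.9 and 60.3 TPM in SAR and at 160, 65.7 and 170 TPM in ROH. SAR replicate 1 was above all other libraries, while SAR replicates 2 and 3 were below every ROH library. The means were 168 ± 197 TPM in SAR and 132 ± 57.3 TPM in ROH (SD, n = 3). Its log2 fold change was 0.50 (SE 0.82, 95% interval -1.38 to 2.38, edgeR, adjusted p = 0.800). Without SAR replicate 1 it was -1.29 (adjusted p = 0.103), and with the replicate block -0.21. The other MYL11 gene, ENSDARG00000002589, was at 0.670, 0.127 and 0.329 TPM in SAR and at 3.92, 2.3997 and 0.647 TPM in ROH, from 1 to 15 counts per library, and did not pass the filter.

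MYL1, the symbol that stands for *mylz3*, is the essential light chain of fast muscle. ENSDARG00000014196 was at 263, 34.1 and 30.3 TPM in SAR and at 91.4, 45.1 and 98.3 TPM in ROH. The pattern was that of the regulatory light chain, with SAR replicate 1 highest and SAR replicates 2 and 3 lowest of the 6. SAR minus ROH gave a log2 fold change of 0.61 (SE 0.84, edgeR, adjusted p = 0.754), -1.28 without SAR replicate 1 (adjusted p = 0.0726) and -0.23 with the replicate block. ENSDARG00000017441 was lower, at 106, 15.8 and 22.4 TPM in SAR and at 48.0, 18.8 and 41.0 TPM in ROH. Here SAR replicate 3 lay between ROH replicates 2 and 3. For SAR against ROH, the log2 fold change was 0.72 (SE 0.75, edgeR, adjusted p = 0.656), and -0.76 without SAR replicate 1 (adjusted p = 0.300). The estimated counts of all MYL11 and MYL1 genes were whole numbers in all 6 libraries, to within 0.002.

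The 3 tested light chain genes varied less against each other than in level. ENSDARG00000053254 (MYL11) itself spanned 8.09-fold between its lowest and highest library. The ratio of MYL1 ENSDARG00000014196 to it ran only from 0.502 to 0.697, a span of 1.39-fold. For MYL1 ENSDARG00000017441 the ratio ran from 0.242 to 0.373, a span of 1.54-fold, and the ratio of the first MYL1 gene to the second ran from 1.35 to 2.49, a span of 1.84-fold. The scarce MYL11 ENSDARG00000002589 held 0.0124% to 0.442% of the members' summed TPM. These ratios are descriptions within each library and were not tested.

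The actins form the thin filament. *actc1b* (ENSDARG00000099197) was at 701, 114 and 58.1 TPM in SAR and at 202, 92.1 and 201 TPM in ROH. SAR replicate 1 was 3.47 times the next highest library, and SAR replicate 3 was the lowest. The means were 291 ± 356 TPM in SAR and 165 ± 63.3 TPM in ROH (SD, n = 3). In edgeR the log2 fold change was 0.97 (SE 0.86, 95% interval -1.02 to 2.95, adjusted p = 0.593), and -0.96 without SAR replicate 1 (adjusted p = 0.239). Relative to MYL11 ENSDARG00000053254, *actc1b* spanned 2.42-fold, from 0.964 to 2.33.

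ACTA1 is the skeletal alpha actin symbol that stands for *acta1b*. Both genes listed under it kept positive log2 fold changes without SAR replicate 1, where those of the tested light chains were negative. ENSDARG00000036371 was at 547, 287 and 257 TPM in SAR and at 225, 147 and 287 TPM in ROH. SAR replicate 1 was the highest and ROH replicate 2 the lowest, and the other libraries overlapped. Its log2 fold change was 0.76 (SE 0.40, edgeR, adjusted p = 0.315), and 0.21 without SAR replicate 1 (adjusted p = 0.760).

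ENSDARG00000055618 (ACTA1) was at 496, 432 and 220 TPM in SAR and at 204, 112 and 149 TPM in ROH. All 3 SAR libraries were above all 3 ROH libraries, and it was the only 1 of the 11 tested members whose fractions did not overlap, in CPM, where 29.9% of all tested genes did not overlap and 14.3% had every SAR library above every ROH library. The means were 383 ± 145 TPM in SAR and 155 ± 46.2 TPM in ROH (SD, n = 3). SAR minus ROH gave a log2 fold change of 1.45 (SE 0.34, 95% interval 0.68 to 2.22, edgeR, adjusted p = 0.0308), under the fold change threshold of 1.5, and DESeq2 gave 1.48 (adjusted p = 4.26e-04). Adjusted p below 0.05 alone was reached by 10.3% of all tested genes, and with the higher level in SAR by 4.88%. Leaving out 1 library gave log2 fold changes of 1.14 to 1.74. Of these 6 fits the adjusted p was below 0.05 in 1, without SAR replicate 3 (1.74, edgeR, adjusted p = 0.00945), where the gene was called. The adjusted p was 0.0602 without SAR replicate 1, 0.0510 without SAR replicate 2, and 0.0890, 0.111 and 0.0514 without ROH replicates 1, 2 and 3. Across all alternatives the adjusted p ran from 4.26e-04 to 0.885.

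*actc1a*, the cardiac actin gene, was measured beside them, at 1300, 1273 and 492 TPM in SAR and at 565, 503 and 482 TPM in ROH. The ratio of ACTA1 ENSDARG00000055618 to *actc1a* spanned 2.00-fold, from 0.223 to 0.446, while its ratio to MYL11 ENSDARG00000053254 spanned 10.01-fold, from 0.881 to 8.82. The ratio of MYL11 ENSDARG00000053254 to *actc1a* spanned 9.14-fold. Estimated counts of *actc1b* and of both ACTA1 genes were whole in 0 of 6 libraries, so reads were divided between genes. How much of each ACTA1 value belongs to another actin gene was not tested.

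**Figure D2:**
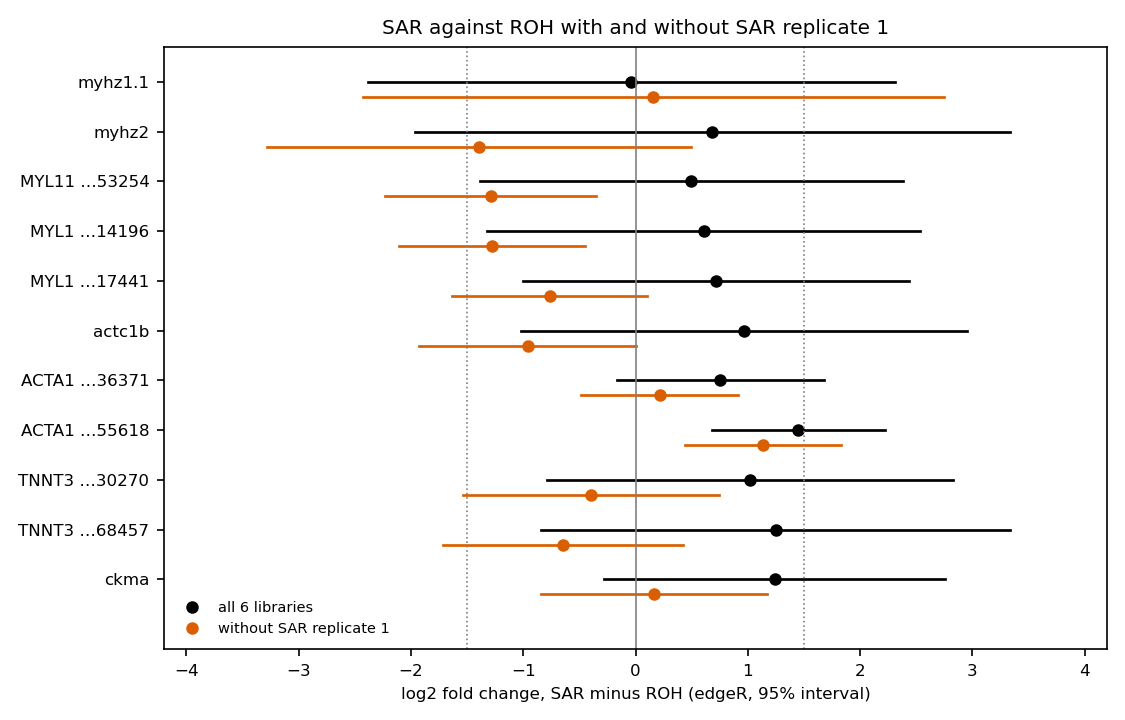
log2 fold change of SAR minus ROH with its 95% interval for the 11 tested genes, from edgeR with all 6 libraries (black) and without SAR replicate 1 (orange), with dotted lines at -1.5 and 1.5. The black point of *myhz1.1* lies at -0.04 and the other 10 lie above 0, and without SAR replicate 1 the light chains, *myhz2*, *actc1b* and both TNNT3 genes lie below 0.

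Troponin T ties the troponin complex to tropomyosin, and TNNT3 is its fast muscle form. Of the 2 genes that carry *tnnt3a* and *tnnt3b*, ENSDARG00000030270 was at 89.3, 11.3 and 22.1 TPM in SAR and at 22.9, 11.3 and 29.7 TPM in ROH. SAR replicate 1 was 3.01 times the next highest library, and the other SAR libraries lay within the range of ROH. For SAR against ROH, the log2 fold change was 1.02 (SE 0.79, edgeR, adjusted p = 0.522), and -0.40 without SAR replicate 1 (adjusted p = 0.721). ENSDARG00000068457 was at 99.4, 8.93 and 15.8 TPM in SAR and at 22.0, 11.1 and 23.5 TPM in ROH. Here SAR replicate 1 was 4.24 times the next highest library and SAR replicate 2 was the lowest. In edgeR the log2 fold change was 1.25 (SE 0.91, adjusted p = 0.490), and -0.64 without SAR replicate 1 (adjusted p = 0.505). The ratio of the second gene to the first ran from 0.713 to 1.11, a span of 1.56-fold, although the levels themselves spanned 7.90-fold and 11.1-fold. Both genes had whole estimated counts in all 6 libraries.

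*ckma* (ENSDARG00000035327), a muscle creatine kinase, was at 179.5, 74.4 and 22.2 TPM in SAR and at 49.9, 37.0 and 37.5 TPM in ROH. SAR replicates 1 and 2 were above every ROH library and SAR replicate 3 was below them all. The means were 92.05 ± 80.1 TPM in SAR and 41.5 ± 7.27 TPM in ROH (SD, n = 3). Its log2 fold change was 1.24 (SE 0.66, 95% interval -0.28 to 2.76, edgeR, adjusted p = 0.315), and 0.17 without SAR replicate 1 (adjusted p = 0.883). Without SAR replicate 3 it was 1.72 (edgeR, adjusted p = 0.0496) and *ckma* was called. Its ratio to MYL11 ENSDARG00000053254 ran from 0.221 to 1.52, a span of 6.87-fold that exceeded those of the light chains, and its ratio to *actc1a* spanned 3.06-fold.

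*pvalb1* (ENSDARG00000037789), a parvalbumin of fast muscle, had 1 count in SAR replicate 2, or 0.0861 TPM, and 0 counts in the other 5 libraries. In those libraries the limit that 0 counts allow, 3 counts, was between 0.0701 and 4.52 TPM. It was below detection at this depth in libraries where the tested light chains and troponin T of the same muscle type were between 8.93 and 396 TPM.

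The members added up to a small part of each library. Their summed TPM was 2880, 1027 and 709 in SAR and 1029, 543 and 1039 in ROH. That is 0.288%, 0.103% and 0.0709% of all transcripts in SAR and 0.103%, 0.0543% and 0.104% in ROH. Outside SAR replicate 1 the fractions overlapped. The log2 difference of the summed level was 0.62 with an exact two-sided permutation p of 0.6, where 0.1 is the smallest p that 3 against 3 libraries allow, and without SAR replicate 1 it was 0.03. Without the ACTA1 genes the sums were 1836, 308 and 232 TPM in SAR and 600.1, 284 and 603 TPM in ROH. Over the 7 settled genes they were 1071, 209 and 118 TPM in SAR and 297, 152 and 293 TPM in ROH. On either sum SAR replicate 1 was 6.80 or 6.53 times the mean of SAR replicates 2 and 3, against 3.32 for all 13 genes.

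**Figure D3:**
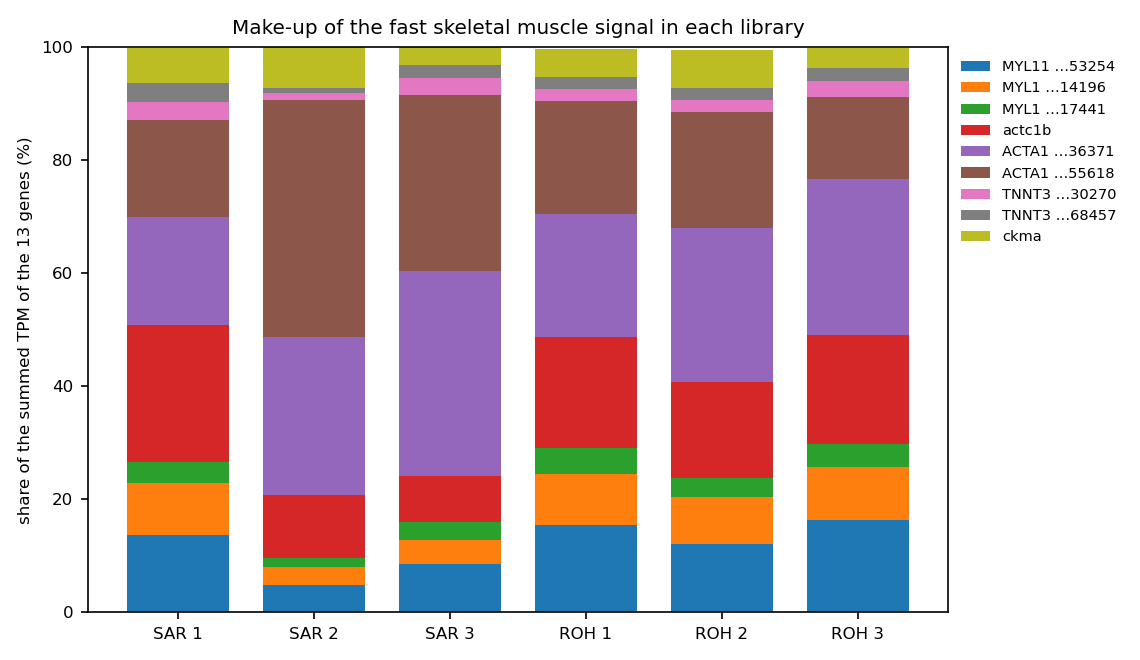
Share of the summed TPM of the 13 genes held by each gene with at least 1% in any library, as stacked bars for the 6 libraries. The ACTA1 pair fills the largest part of SAR replicates 2 and 3, where MYL11 ENSDARG00000053254 holds 4.76% and 8.50%.

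The make-up of the sum differed between libraries. The ACTA1 genes held 19.0% and 17.2% of it in SAR replicate 1, 28.0% and 42.0% in SAR replicate 2, and 36.3% and 31.0% in SAR replicate 3. In ROH they held 21.9% and 19.8%, 27.1% and 20.6%, and 27.6% and 14.4%. MYL11 ENSDARG00000053254 held 13.7%, 4.76% and 8.50% in SAR and 15.5%, 12.1% and 16.3% in ROH. SAR replicate 1 thus resembled the ROH libraries in the share of the regulatory light chain, and SAR replicates 2 and 3 had the lowest shares of it. *actc1b* also had its lowest shares in SAR replicates 2 and 3, with 24.3%, 11.1% and 8.20% in SAR and 19.6%, 16.9% and 19.4% in ROH.

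Across the 6 libraries, the profile of each tested member was set against the mean profile of the others, on the log2 CPM scale. Pearson's r was 0.964 for *actc1b*, 0.949 and 0.947 for the MYL1 genes, 0.931 and 0.901 for the TNNT3 genes and 0.914 for MYL11 ENSDARG00000053254. It was 0.883 and 0.549 for ACTA1 ENSDARG00000036371 and ENSDARG00000055618, 0.833 for *myhz2*, 0.823 for *ckma* and -0.103 for *myhz1.1*. ACTA1 ENSDARG00000055618 and *myhz1.1* were the members that followed the others least. The points share 6 libraries of very unequal depth, and the members' mean centred log2 CPM was 1.77 in SAR replicate 1 and -0.79 to 0.35 in the other libraries.

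The 5 other tested genes with the profile most like the members' mean were *zgc:162331* (r = 0.993), *nrxn2a* (0.989), ENSDARG00000095715 (0.987), *plscr3a* (0.982) and *ogg1* (0.982). They were picked for the highest r of all tested genes over 6 libraries, so a high r follows from the choice, and it was not tested. *plscr3a* was at 34.7, 8.05 and 8.14 TPM in SAR and at 11.6, 8.30 and 10.8 TPM in ROH, with SAR replicate 1 highest as for the members. *nrxn2a* was at 3.52, 2.02 and 1.42 TPM in SAR and at 4.24, 1.65 and 1.79 TPM in ROH, with ROH replicate 1 highest. *ogg1* was at 6.81 to 7.06 TPM in all 6 libraries, with SAR replicate 2 highest. Its likeness to the members held on the log2 CPM scale and was not seen in its almost level TPM.

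Other genes of fast skeletal muscle were followed as a list of 40 names, of which 35 genes were found and 29 tested. None was called higher, 0 of 29, and 1 was called lower, where 2.84% and 3.7% of all tested genes were called. An unadjusted p below 0.05 in edgeR, in either direction, was reached by 5 of the 29, against 23.6% of all tested genes. Without SAR replicate 1, 2 were called lower, where 751 of all 23072 tested genes were. They were *eno3* and *atp2a1*, a calcium pump gene of fast muscle, at -1.75 (edgeR, adjusted p = 0.0481). The median log2 fold change was 0.37, -0.52 without SAR replicate 1 and -0.07 with the replicate block. Here and for the lists below, the median without SAR replicate 1 covers every listed gene tested in that fit, which can be more. SAR replicate 1 was the highest library for 12 of the 29, against 13.4% of all tested genes. Its median ratio to the mean of SAR replicates 2 and 3 was 1.36, against 5.53 for the members. TNNI2 ENSDARG00000045592, a fast troponin I gene, was at 232, 16.8 and 28.9 TPM in SAR and at 60.4, 23.4 and 49.0 TPM in ROH, again with SAR replicate 1 above the rest. SAR minus ROH gave a log2 fold change of 1.23 (edgeR, adjusted p = 0.519), and -0.89 without SAR replicate 1 (adjusted p = 0.281). *tnnc2*, the fast troponin C gene, was at 102, 20.0 and 13.2 TPM in SAR and at 38.0, 22.8 and 32.8 TPM in ROH. For SAR against ROH, the log2 fold change was 0.42 (edgeR, adjusted p = 0.802), and -0.94 without SAR replicate 1 (adjusted p = 0.139). Both were highest in SAR replicate 1, as were both TNNT3 genes.

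The gene that fell was *eno3*, an enolase of glycolysis. It was at 454, 425 and 527 TPM in SAR and at 2209, 1137 and 1842 TPM in ROH, with every SAR library below every ROH library and SAR replicate 1 inside its group. In edgeR the log2 fold change was -1.70 (SE 0.24, adjusted p = 0.00501), and -1.68 without SAR replicate 1 (adjusted p = 0.0110). *eno3* holds most of the TPM of this list in every library but SAR replicate 1, where it holds 454 of 1209 TPM. The sums of the list, 1209, 626 and 701 in SAR and 2543, 1342 and 2111 in ROH, therefore do not follow the members. The red blood cell genes also differ between the fractions in that direction, all 7 of them called lower in SAR, and their part in the *eno3* result was not tested.

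Slow skeletal muscle, the other main fibre type, was followed by 8 genes, 7 of them tested, and 1 was called higher and 0 lower, where 2.84% and 3.7% of all tested genes were called. Their median log2 fold change was 1.46, and 0.27 over the slow genes tested without SAR replicate 1. The called gene was *tnnc1b*, a troponin C gene of slow and cardiac type, at 125, 102 and 23.8 TPM in SAR and at 16.5, 11.02 and 9.63 TPM in ROH. All SAR libraries were above all ROH libraries. Its log2 fold change was 2.95 (SE 0.63, edgeR, adjusted p = 0.0226), and 2.50 without SAR replicate 1 (adjusted p = 0.0407). *tpm2*, a tropomyosin gene, was at 313, 214 and 221 TPM in SAR and at 101, 75.9 and 123 TPM in ROH, with a log2 fold change of 1.21 (edgeR, adjusted p = 0.0143) that was under the fold change threshold, and 1.103 without SAR replicate 1 (adjusted p = 0.0315). *myl10*, a myosin light chain gene, was at 126, 14.6 and 30.8 TPM in SAR and at 24.0, 13.6 and 23.8 TPM in ROH, with SAR replicate 1 far above the rest. SAR minus ROH gave a log2 fold change of 1.601 (edgeR, adjusted p = 0.262), and 0.16 without SAR replicate 1 (adjusted p = 0.881).

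The transcription factors and fusion proteins of muscle formation gave no common order of the libraries. Of 10 genes found, 7 were tested, and 0 were called in either direction, where 6.54% of all tested genes were called. Their median was 0.32, or 0.62 over those tested without SAR replicate 1. At an unadjusted p below 0.05 edgeR counted 1 of the 7, against 23.6% of all tested genes. *myog*, the myogenin gene that drives muscle differentiation, was at 14.0, 107 and 31.7 TPM in SAR and at 92.1, 54.9 and 24.5 TPM in ROH, and SAR replicate 1 was its lowest library. *myod1*, a factor of muscle determination, was at 15.7, 5.16 and 5.91 TPM in SAR and at 13.1, 6.13 and 12.7 TPM in ROH, and SAR replicate 1 was its highest. *mymk*, which is needed for myoblast fusion, was at 2.36, 9.32 and 2.19 TPM in SAR and at 2.80, 2.13 and 2.24 TPM in ROH. The adjusted p of these genes in edgeR was 0.832, 0.885 and 0.397.

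Genes of the muscle membrane and end plate gave 1 call higher and 0 lower among 8 tested genes, where 2.84% and 3.7% of all tested genes were called. Their median log2 fold change was 0.12, 0.60 over those tested without SAR replicate 1 and -0.08 with the replicate block. *scn4ab*, a sodium channel gene of skeletal muscle, was at 6.74, 6.87 and 8.03 TPM in SAR and at 1.69, 1.80 and 2.44 TPM in ROH. Every SAR library was above every ROH library, and SAR replicate 1 was not the highest. For SAR against ROH, the log2 fold change was 1.80 (SE 0.24, edgeR, adjusted p = 0.00386), and 1.76 without SAR replicate 1 (adjusted p = 0.00829). *chrng*, the gamma subunit of the acetylcholine receptor of embryonic muscle, was at 1.78, 1.15 and 0.413 TPM in SAR and at 3.53, 4.95 and 5.26 TPM in ROH, with every SAR library below every ROH library. In edgeR the log2 fold change was -2.17 (adjusted p = 0.0521), -2.76 without SAR replicate 1 (adjusted p = 0.0180) and -2.45 with the replicate block (adjusted p = 0.0302), in both of which it was called. *chrnd*, the delta subunit, was at 6.57, 1.63 and 1.26 TPM in SAR and at 5.33, 1.95 and 5.55 TPM in ROH, with a log2 fold change of -0.40 (edgeR, adjusted p = 0.837), and -1.62 without SAR replicate 1 (adjusted p = 0.144).

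**Figure D4:**
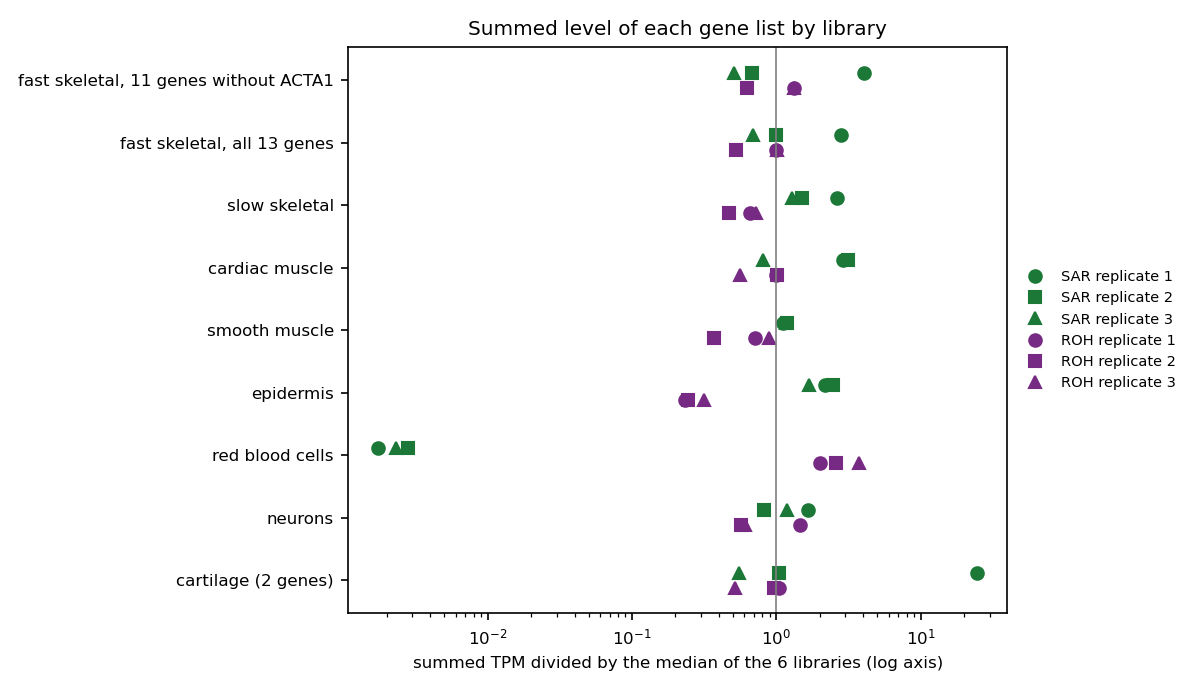
Summed TPM of each gene list in each library, divided by the median of the 6 libraries, on a log axis, with SAR in green, ROH in purple and a marker shape for each replicate. SAR replicate 1 lies above the other SAR libraries for the fast skeletal genes and the slow skeletal genes (1.88 times their mean). It also does so for the neuronal genes (1.66 times) and the 2 cartilage genes, and lies near them for smooth muscle and epidermis.

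Markers of other tissues were set beside the position of SAR replicate 1. The summed level of SAR replicate 1 over the mean of SAR replicates 2 and 3 was 1.82 for the other fast genes, 1.88 for the slow genes and 0.422 for the myogenic regulators. The sum of the other fast genes includes *eno3*, at 454, 425 and 527 TPM in SAR, which lowers the ratio of that list. The same ratio was 1.46 for 13 cardiac genes, 0.954 for 3 smooth muscle genes, 1.05 for 8 epidermal genes and 1.66 for 8 neuronal genes. For 2 cartilage genes, all that were found of 6 names, it was 31.0. *matn1*, a matrix protein gene of cartilage, was at 387, 10.9 and 0.378 TPM in SAR and at 14.5, 12.2 and 1.21 TPM in ROH (log2 fold change 4.38, edgeR, adjusted p = 0.244, and -0.47 without SAR replicate 1, adjusted p = 0.881). *acana*, the aggrecan gene and the other of the pair, was at 7.82, 5.82 and 8.40 TPM in SAR and at 2.25, 3.07 and 7.01 TPM in ROH, so the ratio of 31.0 came from *matn1* alone. Lens crystallin genes were at a summed 0 to 0.951 TPM in SAR and 1.13 to 16.2 TPM in ROH. The part of other tissues in the muscle values of any library was not tested.

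Cardiac muscle genes were the closest comparison in the heart. Of 13 tested, 3 were called higher and 0 lower, where 2.84% and 3.7% of all tested genes were called. The median over the 13 was 1.51, and 1.15 without SAR replicate 1. The called genes were *atp2a2a* (log2 fold change 1.77), *nppb* (3.52) and *myh6* (3.90). Without SAR replicate 1, 2 of the 13 were called higher, where 591 of all 23072 tested genes were, and *nppb* was at 3.12 (edgeR, adjusted p = 0.0623). With the replicate block 5 of the 13 were called higher, where 719 of all 21969 tested genes were. The block added *cmlc1* (1.78, edgeR, adjusted p = 0.00176) and *nppa* (2.45, edgeR, adjusted p = 0.00773). *myl7*, the cardiac regulatory light chain gene, was at 903, 1229 and 146 TPM in SAR and at 348, 383 and 101 TPM in ROH, with a log2 fold change of 1.51 (edgeR, adjusted p = 0.253), and 1.25 without SAR replicate 1 (adjusted p = 0.418). *cmlc1*, the cardiac essential light chain gene, was at 700.0, 665 and 141 TPM in SAR and at 174, 201 and 48.5 TPM in ROH. For both, SAR replicates 1 and 2 were high together and SAR replicate 3 was low, and replicate 3 was also the lowest within ROH. The fast light chains differed, since SAR replicate 1 was high alone. That difference between the lists was described and not tested.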

How the data were processed

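RNA of 3 SAR and 3 ROH libraries was analysed, with groups and replicate numbers from the sample labels. The authors amplified cDNA by SMART-Seq v4, built Nextera XT libraries from it and sequenced paired reads. The submitters' processing notes name bcl2fastq 2.16.10, cutadapt, Salmon and DESeq2 and the build GRCz11, and the study used Ensembl annotation. The version of Salmon is not given in the sources used here. The authors deposited TPM values, which Salmon scaled to gene length and library total, and the deposited estimated counts of Salmon, which need not be whole, were rounded here for count tests. The cDNA was amplified without molecular identifiers, so intervals and limits at 0 counts cover counting error only.

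Genes with low counts were removed with filterByExpr (minimum count 10, minimum total count 15). Libraries were scaled by TMM (factors 0.915 to 1.07), and edgeR 4.0.16 in R 4.3.3 fitted the fraction as the only factor. In a library, 3 counts were worth 0.0388 to 3.00 CPM. Log2 CPM used a prior count of 2. The alternatives were DESeq2 1.42.0, RLE factors, library totals, other filters, limma 3.58.1 on log2(TPM + 1) and log2(TPM + 0.1), thinned counts, gene length offsets, a replicate block and each library left out. The fits were tested on simulated data with 200 changed genes. No simulated library was set apart from its group, so this does not show how the fits treat a library like SAR replicate 1. Named were all members, the 3 most abundant genes of each other list, the called genes of the muscle lists and the 5 genes most like the members. Of the lists of other tissues, cartilage and cardiac genes are named and the rest are described by their sums. Deviations of same-numbered libraries from their group means correlated at 0.0985, 0.2735 and 0.1243 for replicates 1, 2 and 3. Between different numbers the average was -0.0813. Deviations cancel out within a group, so that average is largely set by the other values and is no separate evidence on pairing. The pools are described in the study's methods and the numbers come from the labels. The fit without the block was kept as fixed, and the p-values of either fit measure only the spread between these libraries. The members and lists were chosen with earlier results of these data known.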

Additional observations from a re-analysis of the deposited data

How the results depend on the processing

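edgeR called 624 genes higher and 813 lower in SAR. The counts were 215 and 391 with at least 10 counts in every library, 375 and 533 with limma at a pseudocount of 1 on TPM, 389 and 453 at a pseudocount of 0.1, and 5 and 15 with counts thinned to the smallest library. Without the fold change threshold 1072 were higher. Leaving out 1 library gave 369 to 647 higher and 442 to 1035 lower, and both lowest counts came without ROH replicate 2. Of the members, 0 were called in the main fit. With gene length offsets 1 was called higher (ACTA1 ENSDARG00000055618, 1.52, edgeR, adjusted p = 0.0268), where 599 of all tested genes were called higher and 765 lower. Without the fold change threshold 1 member was higher, where 4.88% of all tested genes were. With 1 library left out, 0 to 2 members were called. The 2 came without SAR replicate 3, where 540 of all tested genes were called higher and 578 lower. The median log2 fold change of the members ran from -0.70 to 1.205 and the log2 difference of the summed TPM from 0.03 to 1.04 when 1 library was left out. The median of -0.70 came without SAR replicate 1, where MYL11 ENSDARG00000002589 also passed the filter, and that of the same 11 genes was -0.64. Against 0.76 over 11 genes, limma gave medians of 0.11 and 0.16 over all 13 genes for pseudocounts of 1 and 0.1 on TPM. It gave 0.27 once genes under a mean TPM of 1 were left out.

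The direction of single members turned as follows. *myhz1.1* was at 0.0936 with DESeq2, and with limma at 0.0548 for a pseudocount of 1 and 0.16 for 0.1. With limma, MYL11 ENSDARG00000053254 was at -0.20 and MYL1 ENSDARG00000014196 at -0.18 for a pseudocount of 1, with or without a minimum mean TPM of 1, and at -0.20 and -0.19 for 0.1. With 1 library left out, the log2 fold change ran from -2.12 to 0.54 for *myhz1.1*, -1.40 to 1.57 for *myhz2*, -1.29 to 0.96 for MYL11 ENSDARG00000053254, -1.28 to 1.08 and -0.76 to 1.16 for MYL1 ENSDARG00000014196 and ENSDARG00000017441, -0.96 to 1.47 for *actc1b*, 0.21 to 1.13 for ACTA1 ENSDARG00000036371, -0.40 to 1.65 and -0.64 to 1.75 for TNNT3 ENSDARG00000030270 and ENSDARG00000068457, and 0.17 to 1.72 for *ckma*. The cause was not tested.

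The fit blocked by replicate takes same-numbered libraries as pairs. In it 719 genes were called higher and 1040 lower, 0 members were called and the members' median was 0.15. There *myhz2* was at -0.43 (SE 0.66), MYL11 ENSDARG00000053254 at -0.21 (SE 0.54) and MYL1 ENSDARG00000014196 at -0.23 (SE 0.61). Without the block these SE were 1.15, 0.82 and 0.84. That of *myhz1.1* was 1.02 without the block and 1.07 with it. Sums without the ACTA1 genes, over the settled genes or over genes with whole counts were added after the data were seen and gave log2 differences of 0.12, 0.34 and 0.12. The library of 999437 counts limits what can be said of *pvalb1* and the myosin heavy chains.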
